A study of Mus musculus with 9 samples.

Results

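Periostin (Postn) and 9 further genes of the extracellular matrix and of contractile cells were followed in mouse prostate cancer cells. The genes are Postn, dermatopontin (Dpt), the fibulins Fbln1 and Fbln2, decorin (Dcn), lumican (Lum), Sparc, the thrombospondins Thbs1 and Thbs2, and Acta2. They were taken as the probe sets annotated to these symbols alone, which gave 10 probe sets of 41345, 1 for each gene, and 10 of 22180 genes. The choice was made with earlier results of these data in view, in which Postn and Fbln2 stood high in recurrent lines against the parental line. Values against the parental line are therefore given as a description, and the members are tested only for AZD1208 lines against vehicle lines. For recurrent against parental lines, calls are counted over all genes and over related genes.

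All samples are labelled as MYCCaP, a line from a prostate tumour of a mouse carrying a prostate-specific MYC transgene. The first group holds 3 lines obtained from mice that received AZD1208, an inhibitor of the PIM kinases, and the second holds 3 lines from mice that received vehicle. The tumours were recurrent and had grown in castrated mice, and these 6 lines carry the label for culture without dihydrotestosterone (DHT), an androgen. The parental MYCCaP line, labelled as grown with DHT, was measured on 3 arrays described as technical replicates, which were averaged to 1 sample. The androgen in the medium, the passage through a castrated mouse and the recurrence cannot be told apart in comparisons with the parental line. The sources used here do not give the age of the mice, the dose of AZD1208, or whether each line stems from its own mouse or from 1 clone, so p-values measure only the spread between these lines.

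Matricellular proteins are secreted into the extracellular matrix, where they bind collagens, growth factors and integrins and tune how cells attach and migrate rather than build the scaffold. In the normal prostate, decorin, lumican and dermatopontin are chiefly products of stromal fibroblasts, and smooth muscle actin marks the muscle cells around the glands and myofibroblasts. Postn is known as a gene induced by TGF-beta in fibroblasts.

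Values are log2 intensities from 9 Affymetrix arrays whose medians lay between 6.22 and 6.36. A probe set's value depends on its own probes, so levels are compared within a gene only. Genes with a mean over the 7 samples below 5.81 on the log2 scale were left out of the tests, which kept 15526 of 22180 genes and 8 of the 10 members. Dcn and Lum fell below that level, and Postn passed it through its recurrent lines, since its parental mean was 5.36. Of 12 epithelial markers tested, 5 were below the parental mean in all 6 lines (Krt19, Krt14, Krt18, Cdh1 and Esrp2), against 10.8% of all genes tested, and 0 were above it in all 6. For Krt18 and Cdh1 some lines lay above single parental arrays. Krt18 was at 6.91 in vehicle 3 and at 6.83, 6.81 and 7.34 on the parental arrays (technical SD 0.30). Cdh1 was at 6.96 in AZD1208 2 and at 7.14, 6.85 and 7.002 on the parental arrays (technical SD 0.14). The keratin Krt8 was at 10.44, 8.24 and 9.17 in AZD1208 lines, at 8.53, 9.75 and 9.38 in vehicle lines, and at 9.19 in the parental line, and Epcam had a mean of 4.90, below the filter level. In RNA of a whole culture, fewer cells of a type and less RNA per cell cannot be told apart.

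Upstream sequence of 250 bases before transcript starts was taken from RefSeq (GRCm38.p6), which held it for 7 of the 10 members, in 9 windows. The windows shown are those of Postn, of Dpt and Thbs2, whose highest lines were the same pair, and of Myl9, a contractile gene that was high in the same line as Acta2. Capitals mark letters that match a motif on either strand: the TATA box TATAAA, the E-box CANNTG, the SMAD element CAGAC, or the CArG box, to which serum response factor is known to bind. For the downstream start of Postn, whose window lies inside the RefSeq gene, and for Myl9, 30 bases around a match are shown.
Postn, upstream start, chr3:54359017-54359266, plus strand: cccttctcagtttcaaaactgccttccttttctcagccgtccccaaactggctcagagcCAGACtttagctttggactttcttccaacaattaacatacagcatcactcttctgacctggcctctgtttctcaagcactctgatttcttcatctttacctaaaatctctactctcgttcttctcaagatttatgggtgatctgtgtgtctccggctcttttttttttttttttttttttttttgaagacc
Postn, downstream start, chr3:54361077-54361106, plus strand: gctaTATAAActcagctctccagagcacag
Dpt, chr1:164796413-164796662, plus strand: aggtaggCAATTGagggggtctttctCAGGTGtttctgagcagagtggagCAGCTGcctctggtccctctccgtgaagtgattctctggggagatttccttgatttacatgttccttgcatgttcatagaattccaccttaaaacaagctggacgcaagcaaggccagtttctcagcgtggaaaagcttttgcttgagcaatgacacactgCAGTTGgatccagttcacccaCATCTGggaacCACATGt
Thbs2, chr17:14694263-14694512, minus strand: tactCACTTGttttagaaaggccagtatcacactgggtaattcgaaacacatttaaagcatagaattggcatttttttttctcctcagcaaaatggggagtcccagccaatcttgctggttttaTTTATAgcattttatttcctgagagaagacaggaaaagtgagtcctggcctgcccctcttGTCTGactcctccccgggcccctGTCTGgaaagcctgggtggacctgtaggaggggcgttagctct
Myl9, chr2:156775293-156775322, plus strand: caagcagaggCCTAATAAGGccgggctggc
Of 32817 such windows across all genes, 12.4% held the TATA box, 66.2% the E-box, 42.2% the SMAD element and 1.47% the CArG box. The Postn TATA box lies 26 to 21 bases before the downstream start, and the SMAD element 191 to 187 bases before the upstream one. The Dpt window held 6 E-boxes, and the Thbs2 window held 2 SMAD elements, 1 E-box and 1 TATA box on the opposite strand. The Acta2 window, of which 212 bases lie inside the RefSeq gene, held 3 E-boxes and 1 SMAD element. The Myl9 window held 1 CArG box, 161 to 152 bases before its start. The CArG box was searched only as CC, then 6 letters A or T, then GG. The near matches ccctatatgg and ccttgtttgg in the Acta2 window were therefore not counted, so these counts do not show that Acta2 lacks such a site. These are matches of letters, and binding was not measured.

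Postn was higher in every recurrent line than in the parental line. It encodes a fasciclin-domain protein that binds integrins and collagen. Its log2 intensity was at 8.58, 12.72 and 8.16 in AZD1208 lines, at 9.30, 10.53 and 7.86 in vehicle lines, and at 5.17, 5.55 and 5.37 on the parental arrays. All 6 lines lay above every parental array, and the AZD1208 and vehicle lines overlapped. The lowest line, vehicle 3, stood 2.50 above the parental mean (5.65-fold) and the highest, AZD1208 2, stood 7.35 above it (163-fold), against a technical SD of 0.19 between parental arrays. In descending order the lines were AZD1208 2, vehicle 2, vehicle 1, AZD1208 1, AZD1208 3 and vehicle 3, and the last pair differed by 0.30, the smallest step of the order. The spread of a single line was not measured, since each line has 1 array. The mean of the recurrent lines was 17.9-fold above the parental value (log2 difference 4.16, SE 1.61), and the log2 difference was 3.44 without AZD1208 2.

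**Figure D1:**
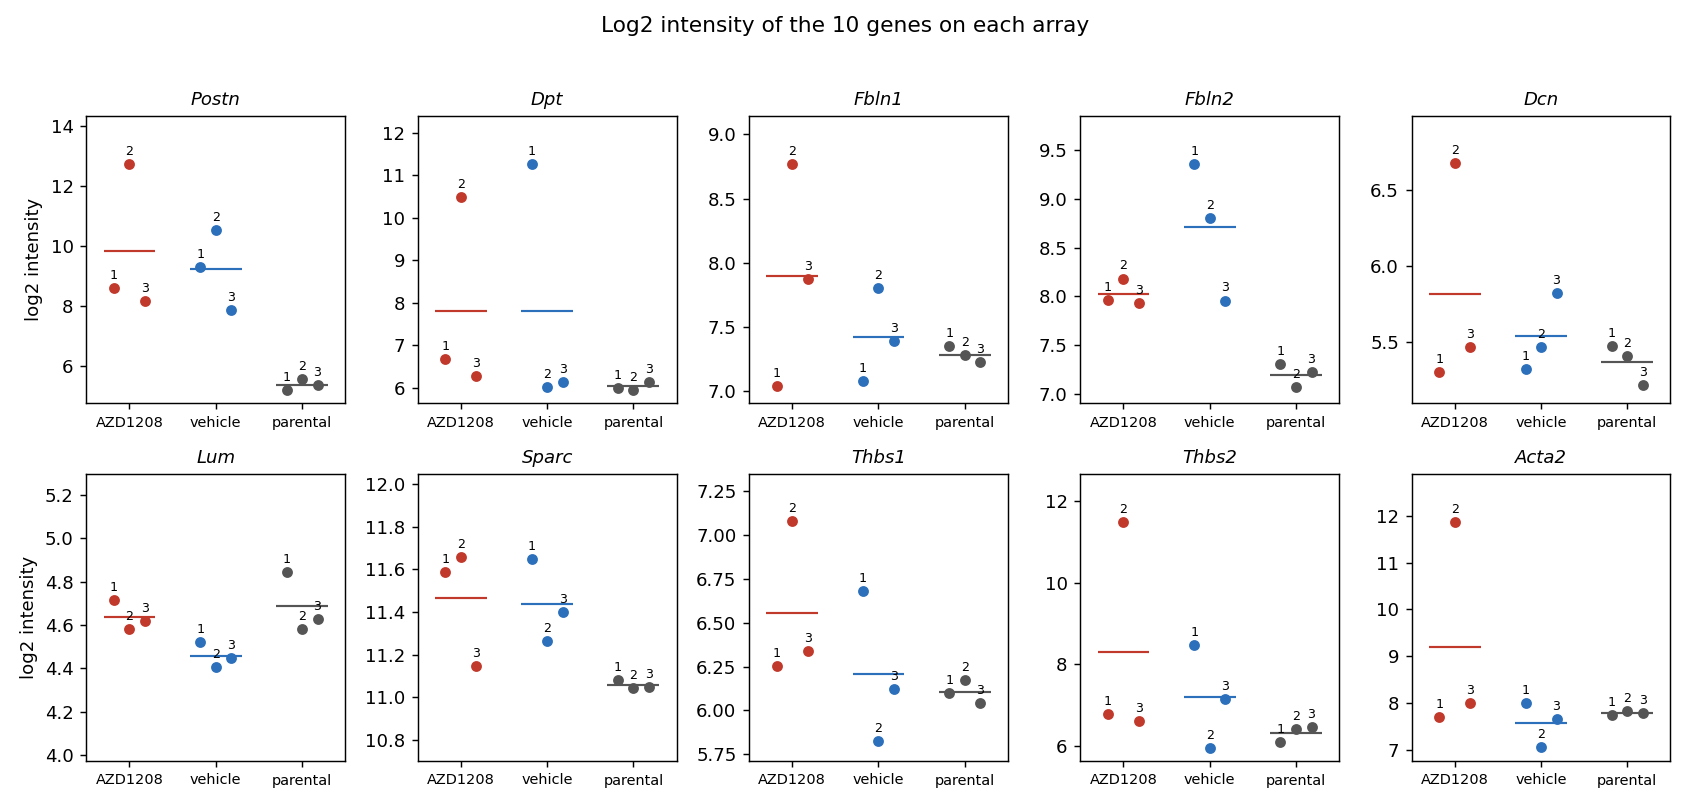
Log2 intensity of each of the 10 genes (vertical axes, which differ between panels) on the 3 AZD1208, 3 vehicle and 3 parental arrays, with replicate numbers beside the points and horizontal lines at group means. Postn is above the parental arrays in every line, Dpt is high in AZD1208 2 and vehicle 1, and Acta2 is high in AZD1208 2.

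Fbln2 and Sparc were the other members with all 6 lines above the parental mean. Fbln2, a fibulin of basement membranes and elastic fibres, was at 7.96, 8.18 and 7.93 in AZD1208 lines, at 9.36, 8.80 and 7.96 in vehicle lines, and at 7.30, 7.07 and 7.22 on the parental arrays. The recurrent mean was 2.25-fold above the parental value (log2 difference 1.17, SE 0.44). Vehicle 1 and vehicle 2 lay above all 3 AZD1208 lines, and vehicle 3 lay among them. Sparc encodes a collagen-binding glycoprotein that limits cell spreading. It was at 11.59, 11.66 and 11.15 in AZD1208 lines, at 11.65, 11.27 and 11.40 in vehicle lines, and at 11.08, 11.04 and 11.05 on the parental arrays. The recurrent mean was 1.31-fold above the parental value (log2 difference 0.39, SE 0.26), and the nearest line, AZD1208 3, stood 0.09 above it with a technical SD of 0.02. With Postn, 3 of the 8 members tested had 6 of 6 lines above the parental mean, a pattern of 11.8% of all genes tested. None of the 8 was below it in every line, against 10.8% of all genes. The members were chosen on this contrast, so nothing is read from these shares.

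Dpt, a small matrix protein that binds decorin and helps collagen fibrils to form, was high in 2 lines of different groups. It was at 6.68, 10.48 and 6.28 in AZD1208 lines, at 11.25, 6.03 and 6.15 in vehicle lines, and at 6.003, 5.96 and 6.15 on the parental arrays. AZD1208 2 and vehicle 1 stood 4.45 and 5.22 above the parental mean (21.8-fold and 37.2-fold), and the other 4 lines between 0.01 below and 0.64 above it, with a technical SD of 0.10. The recurrent minus parental difference of 1.78 (SE 2.13) was 0.91 without vehicle 1 and 1.11 without AZD1208 2.

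The thrombospondins are large secreted glycoproteins that bind CD47 and CD36 and restrain the growth of blood vessels. Thbs2 was at 6.78, 11.49 and 6.61 in AZD1208 lines, at 8.46, 5.96 and 7.14 in vehicle lines, and at 6.09, 6.40 and 6.47 on the parental arrays. Its highest lines were AZD1208 2, 5.17 above the parental mean (36.1-fold), and vehicle 1, 2.14 above it (4.42-fold), while vehicle 2 lay 0.36 below with a technical SD of 0.20. The recurrent minus parental difference of 1.42 (SE 1.72) was 0.62 without AZD1208 2. Thbs1 covered a narrower range, at 6.25, 7.08 and 6.34 in AZD1208 lines, at 6.68, 5.83 and 6.12 in vehicle lines, and at 6.10, 6.17 and 6.04 on the parental arrays. AZD1208 2 and vehicle 1 were its highest lines as well, and vehicle 2 its lowest.

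Acta2, the smooth muscle alpha-actin that marks myofibroblasts, was high in 1 line. It was at 7.71, 11.87 and 7.998 in AZD1208 lines, at 7.99, 7.05 and 7.65 in vehicle lines, and at 7.74, 7.82 and 7.78 on the parental arrays. AZD1208 2 stood 4.09 above the parental mean (17.1-fold), and the other 5 lines lay between 0.73 below and 0.22 above it. The recurrent minus parental difference was 0.60 (SE 1.35), and without AZD1208 2 it was -0.07.

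Fbln1, a calcium-binding fibulin, and Dcn, a small leucine-rich proteoglycan that binds collagen and TGF-beta, were highest in AZD1208 2 too. Fbln1 was at 7.04, 8.77 and 7.87 in AZD1208 lines, at 7.07, 7.80 and 7.39 in vehicle lines, and at 7.35, 7.28 and 7.22 on the parental arrays. AZD1208 1 and vehicle 1 lay below the parental arrays and the other 4 lines above them. Dcn was at 5.30, 6.68 and 5.47 in AZD1208 lines, at 5.32, 5.47 and 5.83 in vehicle lines, and at 5.47, 5.41 and 5.22 on the parental arrays, so that AZD1208 2 and vehicle 3 lay above the parental arrays. Lum, a related proteoglycan of collagen fibrils, was at 4.71, 4.58 and 4.62 in AZD1208 lines, at 4.52, 4.40 and 4.45 in vehicle lines, and at 4.84, 4.58 and 4.63 on the parental arrays. Its AZD1208 lines all lay above its vehicle lines, by 0.18 in the mean, with a technical SD of 0.14, and as a gene below the filter level it was not tested.

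The members differed in how far they varied among the lines. The range over the 6 lines was 5.54 for Thbs2, 5.23 for Dpt, 4.85 for Postn and 4.82 for Acta2 on the log2 scale, and 0.51 for Sparc and 0.31 for Lum. The median range of all genes tested was 0.63, and 33 genes (0.213%) had a range over 4, Thbs2, Dpt, Postn and Acta2 included. AZD1208 2 was the highest line for 7 of the 10 members, against 18.1% of all genes tested, and vehicle 2 was the lowest for 5, against 18%. These 10 include Dcn and Lum, which were not among the genes tested. For Sparc, AZD1208 2 led vehicle 1 by only 0.008, with a technical SD of 0.02. Of the 8 members tested, 5 stood at least 1 log2 unit above the parental mean in AZD1208 2, where 6.16% of genes did. In vehicle 1 this held for 4 members (4.62% of genes) and in vehicle 2 for 2 (1.49%). In AZD1208 1 (3.08%), AZD1208 3 (0.657%) and vehicle 3 (0.973%) Postn was the 1 such member. The members were chosen with values of the recurrent lines against the parental line known, and Postn passed the filter through its recurrent lines. Nothing is therefore read from the shares in this paragraph.

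The comparison that did not choose the members set AZD1208 lines against vehicle lines. None of the 8 members tested passed the threshold of 0.05, and of all 15526 genes 0 passed (0%; limma, Benjamini-Hochberg adjusted p). At an unadjusted p under 0.05 there were 81 genes (0.522%) and 0 members, and with the replicate number as a block there were 168 genes (1.08%) and 1 member, Fbln2. The AZD1208 mean was the higher one for 7 of the 8, and for 45.2% of all genes. Without AZD1208 2 it was higher for 3 of the 8, and for 46.2% of all genes. Acta2 averaged 9.19 ± 2.33 in AZD1208 lines and 7.56 ± 0.48 in vehicle lines (SD, n = 3 each), a log2 difference of 1.63 with a 95% interval from -0.76 to 4.01, and of 0.29 without AZD1208 2. Thbs2 averaged 8.29 ± 2.77 in AZD1208 lines and 7.19 ± 1.25 in vehicle lines (SD, n = 3 each), a difference of 1.11 (interval -1.94 to 4.15) that was -0.49 without AZD1208 2. Postn averaged 9.82 ± 2.52 in AZD1208 lines and 9.23 ± 1.33 in vehicle lines (SD, n = 3 each). Its difference of 0.59 (interval -2.27 to 3.44) was -0.86 without AZD1208 2 and -0.10 without vehicle 3.

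Fbln2 was the member with the lower mean in AZD1208 lines, at 8.03 ± 0.14 in AZD1208 lines and 8.71 ± 0.71 in vehicle lines (SD, n = 3 each). Its difference was -0.68 (interval -1.46 to 0.10; limma, unadjusted p = 0.078). With the replicate number as a block, a pairing that no label states, the same difference had an unadjusted p of 0.046 and an adjusted p of 1 (limma). The AZD1208 line was the lower one in all 3 pairs of the same number, but in number 3 by only 0.03, with a technical SD of 0.12. The difference was -0.35 without vehicle 1 and -1.06 without vehicle 3 (limma, unadjusted p = 0.24 and 0.0033). Fbln1 differed by 0.47 (interval -0.51 to 1.46), by 0.03 without AZD1208 2 and by 0.90 without AZD1208 1 (limma, unadjusted p = 0.92 and 0.037). Thbs1 differed by 0.35 (interval -0.35 to 1.04), by 0.09 without AZD1208 2, by 0.16 without vehicle 2 and by 0.58 without vehicle 1. Sparc differed by 0.03 (interval -0.43 to 0.48) and Dpt by 0.0037 (interval -3.77 to 3.78). The sign of the Sparc difference turned without AZD1208 1 (-0.04), AZD1208 2 (-0.07) or vehicle 2 (-0.06), and that of Dpt without AZD1208 2 (-1.33), vehicle 2 (-0.89) or vehicle 3 (-0.83). The adjusted p rounded to 1 for each of the 8 (limma). A two-sided exact permutation test over the lines gave p from 0.2 for Acta2 to 1 for Dpt, where the smallest p that 3 lines against 3 allow is 0.1. The groups of lines overlapped for all 8, where 1.41% of genes tested had all AZD1208 lines higher and 1.97% all AZD1208 lines lower.

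**Figure D2:**
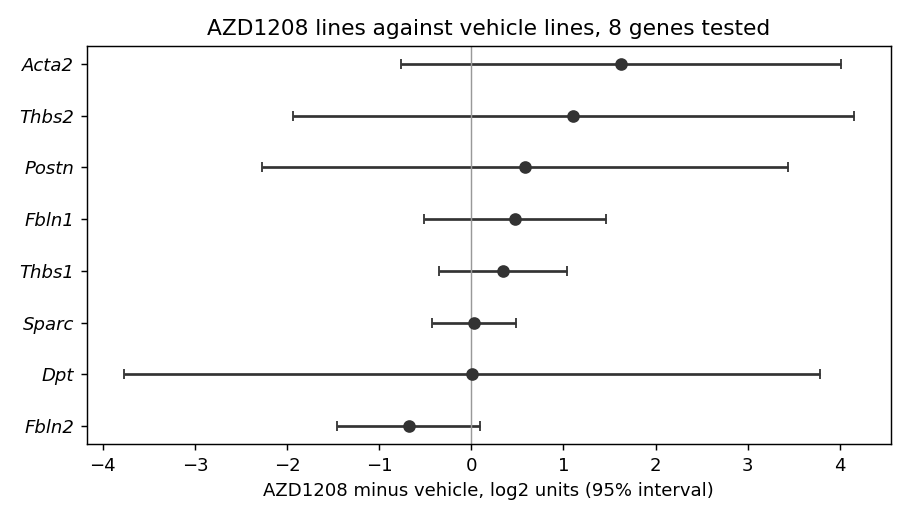
Log2 difference of AZD1208 lines minus vehicle lines (horizontal axis) for the 8 genes tested, as points with 95% intervals from the fit over 7 samples. Every interval crosses 0, and that of Fbln2, from -1.46 to 0.10, lies mostly below it.

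Relatives of the members were taken from 7 lists of named families, and 0 of their genes passed in either direction in either comparison (limma, adjusted p; 0% of all genes called in both). At an unadjusted p under 0.05, 429 genes (2.76% of all tested) were counted for recurrent against parental lines. Among fasciclin and thrombospondin relatives 6 of 6 were tested. Thbs3 was at 10.22, 9.36 and 8.13 in AZD1208 lines, at 9.72, 8.38 and 8.38 in vehicle lines, and at 7.92 in the parental line, above it in all 6 lines. Tgfbi, a fasciclin-domain relative of Postn, was at 6.84, 6.79 and 6.91 in AZD1208 lines, at 7.10, 6.91 and 6.91 in vehicle lines, and at 6.91 in the parental line. The Tgfbi value was 6.9106 on AZD1208 3, vehicle 2, vehicle 3 and each parental array (technical SD 0). Whether its probe set responds to the RNA was not tested. The list's median recurrent minus parental difference was -0.05, against -0.02 over all genes tested. The cartilage thrombospondin Comp (-0.23) and Stab1 (-0.13), a scavenger receptor, were its lowest, and Stab1 also had the lowest AZD1208 minus vehicle difference (-0.14).

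Of the fibulin and elastic fibre list 11 of 14 were tested, with a median difference from the parental line of 0.06. Emilin1, an elastic fibre glycoprotein, was at 7.59, 9.26 and 7.56 in AZD1208 lines, at 9.19, 7.40 and 7.81 in vehicle lines, and at 7.08 in the parental line. Fbln5, which binds elastin, was at 6.96, 9.51 and 7.18 in AZD1208 lines, at 8.51, 6.67 and 7.002 in vehicle lines, and at 6.95 in the parental line. For both, AZD1208 2 and vehicle 1 were the highest lines, as for Dpt and Thbs2. Mfap4, a microfibril-associated protein, had a mean difference of 0.70 from the parental line, and elastin (Eln, -0.07) and Mfap5 (-0.07) were the lowest. The parental mean of Mfap4 (5.75) lay below the filter level, so Mfap4 passed it through its recurrent lines. Between AZD1208 and vehicle lines the list ran from -0.25 for Ltbp1, a binding protein of latent TGF-beta, to 0.49 for Fbln5.

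Of small leucine-rich proteoglycans other than Dcn and Lum 9 of 15 were tested. Osteoglycin (Ogn) was at 7.60, 9.66 and 6.31 in AZD1208 lines, at 10.79, 6.0001 and 6.42 in vehicle lines, and at 5.07 in the parental line, above it in all 6. Osteomodulin (Omd) was at 8.80, 6.99 and 5.27 in AZD1208 lines, at 9.45, 6.07 and 5.996 in vehicle lines, and at 5.38 in the parental line. Vehicle 1 was the highest line for both, as for Dpt, with AZD1208 2 next for Ogn and AZD1208 1 next for Omd. Like Postn, both passed the filter through their recurrent lines, since their parental means lay below 5.81. Genes with a mean below that level over the 7 samples are in none of the list's medians. Biglycan (Bgn) and podocan (Podn) had the lowest differences from the parental line, -0.14 and -0.11. Prelp had the highest AZD1208 minus vehicle difference of the list (1.01, SE 0.54), and Omd the lowest (-0.15). The list median was 0.11 for recurrent minus parental. For AZD1208 minus vehicle it was 0.18, and -0.02 over all genes tested.

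In the SPARC family 5 of 7 were tested. Smoc1, a calcium-binding relative of Sparc, was at 11.94, 11.74 and 11.36 in AZD1208 lines, at 12.04, 11.37 and 11.71 in vehicle lines, and at 11.05 in the parental line, with all 6 lines above the parental line as for Sparc. Smoc2 differed from the parental line by 0.19, Spock1 by -0.11 and Spock2 by -0.21. Fstl1 had the highest AZD1208 minus vehicle difference (0.30) and Smoc2 the lowest (-0.20).

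Among other matricellular genes 15 of 18 were tested, with a median difference from the parental line of 0.05. Ecm1, a secreted matrix glycoprotein, was at 12.10, 12.42 and 11.97 in AZD1208 lines, at 12.92, 11.92 and 11.34 in vehicle lines, and at 10.30 in the parental line, a mean difference of 1.81. Vitronectin (Vtn), an adhesive glycoprotein, was at 7.99, 8.14 and 7.44 in AZD1208 lines, at 9.51, 6.73 and 7.29 in vehicle lines, and at 6.63 in the parental line. Both were highest in vehicle 1 and above the parental mean in all 6 lines. For Vtn, vehicle 2 (6.73) lay below parental array 3 (6.78), with a technical SD of 0.13. The lowest differences were those of galectin-3 (Lgals3, -0.42) and Ccn4 (-0.23). AZD1208 minus vehicle ran from -0.35 for the tenascin Tnxb to 0.41 for Ccn5.

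Contractile genes were set beside Acta2, with 20 of 20 tested. Myl9, a myosin light chain of smooth muscle, was at 8.25, 10.66 and 8.13 in AZD1208 lines, at 8.02, 7.69 and 7.96 in vehicle lines, and at 7.95 in the parental line. Actg2, the enteric smooth muscle actin, was at 6.33, 9.28 and 6.29 in AZD1208 lines, at 6.35, 5.99 and 6.24 in vehicle lines, and at 6.13 in the parental line. Both were high in AZD1208 2, as Acta2 was. In that line 5 of the 20 stood at least 1 above the parental mean, where 6.16% of all genes tested did. The count was 1 in AZD1208 1 (3.08% of all genes), 1 in vehicle 1 (4.62%) and 0 in each of the other 3 lines. Myh11, the smooth muscle myosin heavy chain, was at 7.15 in AZD1208 2 and 7.29 in the parental line. The co-activator Myocd was below the parental mean of 10.34 in all 6 lines (mean difference -0.73), and at 8.91 in AZD1208 2. In vehicle 3 Myocd (10.28) lay above parental array 3 (10.20), with a technical SD of 0.13. Its AZD1208 minus vehicle difference of -0.61 (SE 0.34) was the lowest of the list and that of Myl9 (1.13, SE 0.63) the highest. The actin-binding genes Tpm2 and Cald1 had the highest differences from the parental line (0.83 and 0.68), and the transcription factor Srf was at -0.26.

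Of receptors for these proteins 12 of 13 were tested. Lrp1, an endocytic receptor that clears thrombospondins, was at 10.26, 11.32 and 9.26 in AZD1208 lines, at 10.69, 9.36 and 9.97 in vehicle lines, and at 7.12 in the parental line. Ddr2, a kinase receptor for fibrillar collagen, was at 7.46, 10.55 and 8.53 in AZD1208 lines, at 9.50, 8.01 and 8.22 in vehicle lines, and at 6.07 in the parental line. All 6 lines were above the parental value for both. The integrin subunit Itgb3, part of a receptor for periostin, was at 7.64, 9.02 and 9.50 in AZD1208 lines, at 7.46, 9.91 and 8.99 in vehicle lines, and at 9.35 in the parental line, lowest in vehicle 1 and AZD1208 1. The integrin subunit Itga3 differed from the parental line by -0.25 and had the lowest AZD1208 minus vehicle difference of the list (-0.43).

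**Figure D3:**
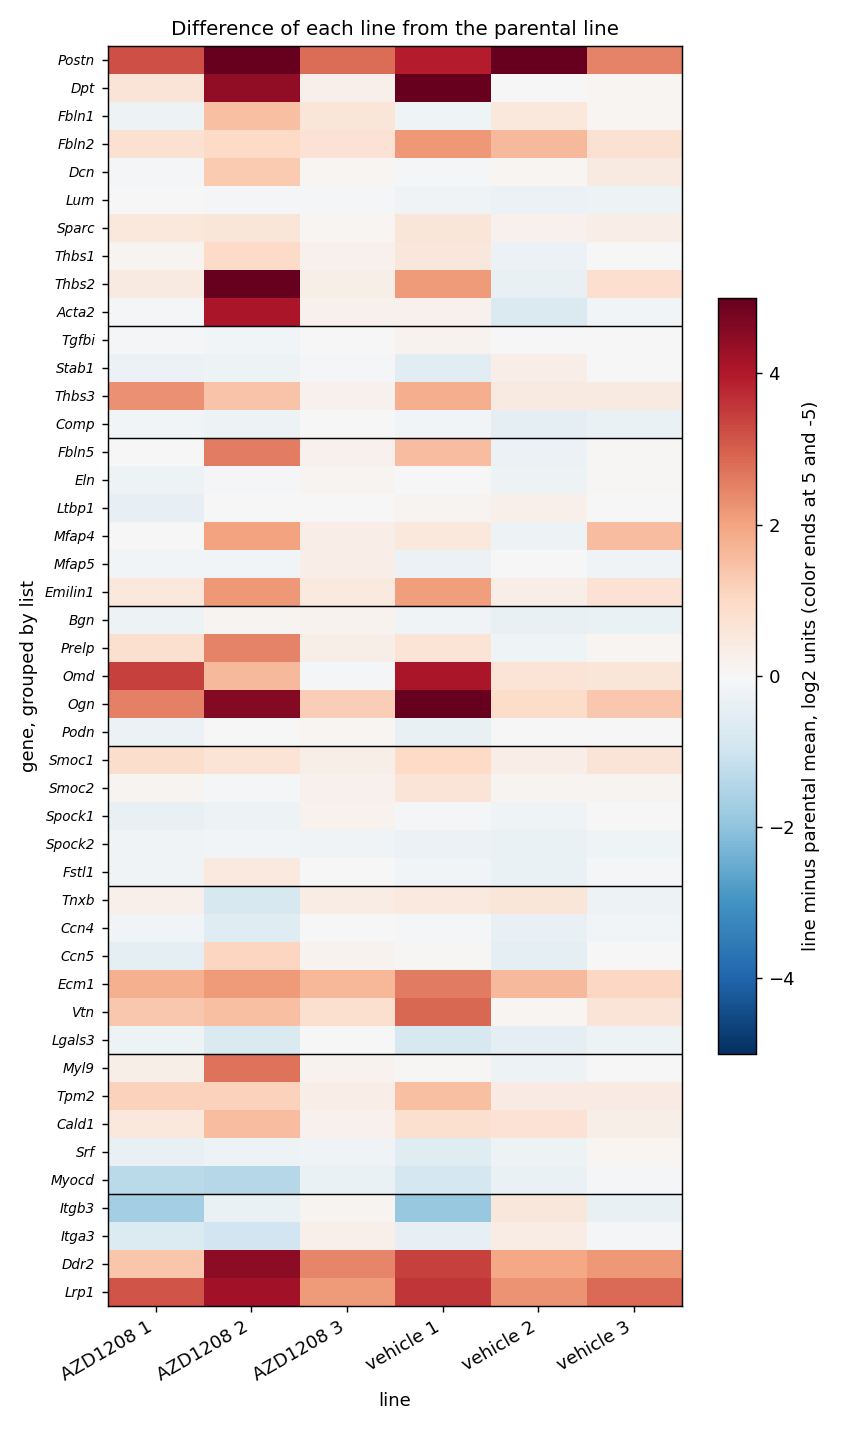
Difference of each line from the parental mean in log2 units (color, from blue below to red above, ending at 5 units on either side) for the 10 members and the named genes of the 7 related lists, which black lines separate. Columns are the AZD1208 lines and then the vehicle lines. Dpt, Ogn, Fbln5 and Emilin1 are red in both AZD1208 2 and vehicle 1, and Acta2 and Myl9 in AZD1208 2.

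Genes with a profile near that of Postn were ranked by the root mean square difference from it over the 6 lines, each line taken as its log2 difference from the parental mean. The 6 nearest genes outside the members were Saa3 (1.35), an acute phase protein, Igfbp5 (1.62), Cdcp3 (1.75), Lrp1 (1.79), haptoglobin Hp (1.87) and Steap4 (1.91). Saa3 stood 2.49, 4.80 and 1.85 above the parental mean in AZD1208 lines and 4.65, 4.64 and 0.98 above it in vehicle lines. Like Postn it was highest in AZD1208 2 and lowest in vehicle 3. Igfbp5 ran only from 3.90 to 5.07 above the parental mean, and Postn from 2.50 to 7.35. A near gene therefore need not share the order of the lines. The nearest member was Thbs2, at 3.03. Within the members the closest pairs were Fbln1 with Dcn (0.32) and Sparc with Thbs1 (0.33). The distance counts the size of the differences, so members that moved little lie close together. Thbs2 lay 1.33 from Dpt and 1.02 from Acta2. These distances rest on 6 lines and 1 shared parental mean.

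**Figure D4:**
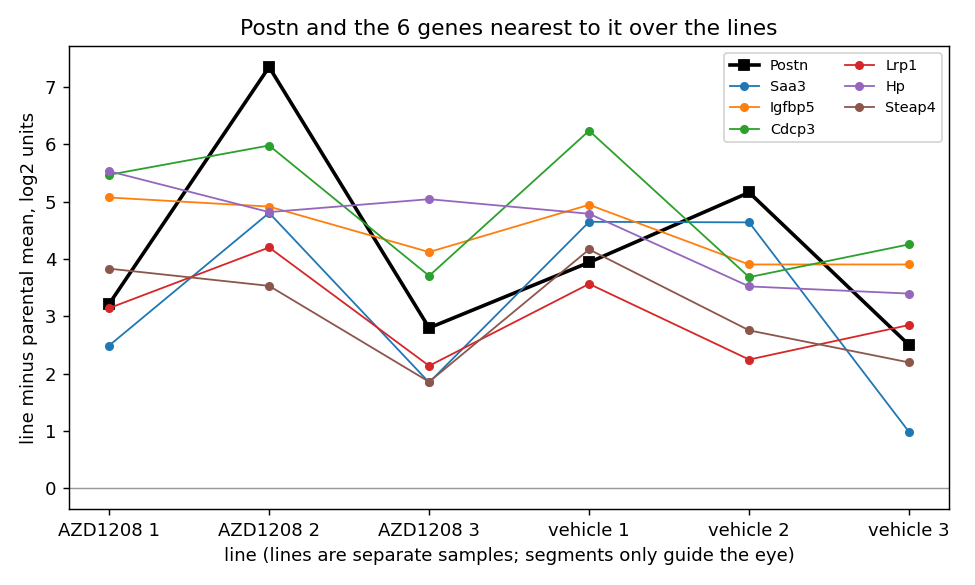
Difference from the parental mean in log2 units (vertical axis) for Postn (black squares) and the 6 genes nearest to it (colored circles) in the 3 AZD1208 and 3 vehicle lines. All 7 genes lie above 0 in every line, and Postn reaches 7.35 in AZD1208 2.

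Markers of cell types that a culture from a tumour could hold were examined beside the members. Of 20 fibroblast markers 19 were tested, and their mean level was 8.05 to 8.26 in AZD1208 lines, 7.98 to 8.25 in vehicle lines and 8.06 to 8.08 on the parental arrays. At least 1 above the parental mean stood 2 of the 19 in AZD1208 2 (6.16% of all genes) and 2 in vehicle 1 (4.62%), where Dpt and Thbs2 were highest. The count was 1 in AZD1208 1 (3.08%), 0 in AZD1208 3 (0.657%), 1 in vehicle 2 (1.49%) and 0 in vehicle 3 (0.973%). The growth factor receptor Pdgfra was at 9.27, 9.84 and 8.24 in AZD1208 lines, at 10.03, 9.06 and 8.47 in vehicle lines, and at 7.47 in the parental line. Pdgfrb was at 6.49, 9.78 and 6.97 in AZD1208 lines, at 6.98, 6.74 and 7.22 in vehicle lines, and at 6.85 in the parental line, high in AZD1208 2 as Acta2 was. Pdgfra, Col5a1 and Vim were the 3 of the 19 markers above the parental mean in all 6 lines, a pattern of 11.8% of all genes tested. In all 6 lines 1 marker, Gsn, was below it, against 10.8% of all genes. Col5a1, a fibrillar collagen chain, was at 8.37, 9.14 and 8.59 in AZD1208 lines, at 8.81, 8.70 and 8.64 in vehicle lines, and at 8.29 in the parental line. Its value in AZD1208 1 lay below parental array 1 (8.42), with a technical SD of 0.12. Vim, an intermediate filament of mesenchymal cells, was at 13.73, 13.91 and 13.67 in AZD1208 lines, at 13.65, 13.59 and 13.62 in vehicle lines, and at 13.27 in the parental line. The collagen genes Col1a1, Col1a2 and Col3a1, defining products of fibroblasts, were at 7.33, 6.84 and 6.61 in AZD1208 2, at 7.29, 7.05 and 6.74 in vehicle 1, and at 7.34, 7.11 and 6.77 in the parental line. Col1a1 was at 7.2861 on vehicle 1, vehicle 3 and parental array 1 alike, and Col3a1 at 6.7561 on AZD1208 1, vehicle 3 and parental array 1. Without detection calls, flat values of these probe sets do not show that the RNA was absent or unchanged. Twist2 (-0.36) and Gsn (-0.85) had the lowest differences from the parental line.

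Of 11 pericyte and smooth muscle markers 10 were tested, 5 of which also stand in the contractile list. Their mean level was 6.996 to 7.67 in AZD1208 lines, 6.82 to 7.09 in vehicle lines and 6.82 to 6.86 on the parental arrays. At least 1 above the parental mean stood 3 of the 10 in AZD1208 2 (6.16% of all genes). The count was 1 in each other line, where between 0.657% (AZD1208 3) and 4.62% (vehicle 1) of all genes did so. Mcam was at 9.98, 11.46 and 8.79 in AZD1208 lines, at 10.16, 9.43 and 9.10 in vehicle lines, and at 7.65 in the parental line. The pericyte marker Rgs5 had a mean of 4.77, below the filter level, and Cspg4 and Myh11 had the lowest differences (-0.14 each). By line, list medians of the difference from the parental line lay between -0.22 and 0.08 for 10 endothelial markers, between -0.12 and 0.35 for 7 myeloid markers, between -0.52 and 0.34 for 5 lymphocyte markers and between -0.36 and -0.04 for 12 epithelial markers. Cdh5 (-0.21) and Pecam1 (-0.13) were the lowest endothelial genes and Eng (0.04) and Cldn5 (0.02) the highest. Lyz2, the lysozyme of macrophages, lay below the filter level in its mean (5.77) and is in none of these medians. It was at 5.18, 6.42 and 4.74 in AZD1208 lines, at 7.10, 6.97 and 4.80 in vehicle lines, and at 5.18 in the parental line, above the parental line in AZD1208 2, vehicle 1 and vehicle 2, the 3 lines highest for Postn. Cd68, a lysosomal protein of macrophages, was at 7.11, 8.08 and 7.24 in AZD1208 lines, at 7.57, 7.39 and 7.24 in vehicle lines, and at 7.04 in the parental line, highest in the same 3 lines. The leukocyte marker Ptprc, below the filter level, was at 4.85, 4.49 and 4.85 in AZD1208 lines, at 5.12, 5.05 and 4.84 in vehicle lines, and at 4.85 in the parental line. Cd68 (0.40) and Adgre1 (0.30) were the highest myeloid genes tested and Cd14 (-0.17) and Csf1r (-0.15) the lowest. These last 3 genes had other orders over AZD1208 2, vehicle 1 and vehicle 2. Cd14 was at 8.86, 6.54 and 8.81 there and at 8.09 in the parental line, lowest in vehicle 1. Csf1r was at 6.165, 6.145 and 5.93, below the parental 6.33. Adgre1 was at 5.72, 6.22 and 6.54, with 5.80 in AZD1208 3, 5.81 in vehicle 3 and 5.61 in the parental line. Cd4 (-0.31) and Cd2 (-0.19) were the lowest lymphocyte genes and Cd79a (0.07) and Cd3d (0.01) the highest. Krt19 (-1.52) and Krt14 (-0.72) were the lowest epithelial genes and Cldn4 (0.41) and Ehf (0.40) the highest. Adgre1 and Ehf, with parental means of 5.61 and 5.75, passed the filter through their recurrent lines. The part of other cells, macrophages included, in the values of Postn, Dpt, Thbs2 and Acta2 was not tested.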

How the data were processed

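RNA of the 7 lines was measured on 9 Affymetrix arrays of the Mouse Gene 2.0 ST design. Each deposited value is a log2 intensity of 1 probe set on 1 array, which the authors made with oligo per the submitters' processing notes; the sources used here do not say how background, scale and summary were handled. No detection calls come with the values, and differences of dim genes can be too small. Precision is limited by the number of arrays.

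Symbols come from the platform annotation: of 41345 probe sets, 23521 had 1 symbol, 1814 several and 16010 none listed. The brightest probe set stood for a gene, and the dimmest 30% of genes by mean were removed. After averaging the 3 parental arrays, limma 3.58.1 (R 4.3.3; lmFit, eBayes) was run on 7 samples by group, which left 4 residual degrees of freedom beside 3.36 from the prior, with Benjamini-Hochberg adjustment over 15526 genes at 0.05. The single parental sample was taken to vary as much as the lines do. The procedure was tested on simulated data for AZD1208 against vehicle. At the adjusted threshold it recovered 38.8% of genes shifted by 1 log2 unit, 80.6% shifted by 2 and 100% shifted by 4, with 8 false calls. A difference near 1 can therefore go uncalled.

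AZD1208 and vehicle lines share replicate numbers. Each group's mean was removed first. Lines of the same number then had correlations across genes of 0.15, 0.12 and 0.53 for numbers 1, 2 and 3. Each was over 0.1, but AZD1208 2 with vehicle 1 reached 0.26, more than numbers 1 and 2. These correlations therefore do not establish a pairing, and no label states one. The main fit left the lines unpaired. The replicate block entered only among the alternatives, and its pairing was read from the same data.

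The members and the gene lists were chosen with earlier results of these data known. Of 173 list entries 165 had a probe set and 141 were tested. Named genes are all members, per related list the 2 highest and 2 lowest differences from the parental line and the highest and lowest AZD1208 minus vehicle difference, per marker list the 2 highest and 2 lowest differences from the parental line, and the 6 genes nearest to Postn other than predicted, olfactory or small RNA symbols. Krt8, Krt18, Cdh1, Esrp2, Epcam, Rgs5, Lyz2, Ptprc, Vim and the 4 collagen genes were named after their values were seen. Alternatives were quantile normalization, centring on the median, no filter, the mean of probe sets, array weights, the replicate block, parental arrays as 3 samples, recurrent lines only, exact permutation and leaving out each array.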

Additional observations from a re-analysis of the deposited data

How the results depend on the processing

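For AZD1208 against vehicle, 0 genes were called under each of the 17 other settings (limma), the replicate block among them, which changed no call by adjusted p and gave 168 genes at an unadjusted p under 0.05, against 81 without it. Of the members, Fbln2 was under 0.05 unadjusted with the block (0.046), with parental arrays as 3 samples (0.044) and without vehicle 3 (0.0033), and Fbln1 without AZD1208 1 (0.037; limma). For recurrent against parental lines, 1 gene was called with array weights and 156 with the parental arrays as 3 samples, which by construction counts technical spread as spread between samples, and 0 with any array left out. With array weights the AZD1208 minus vehicle difference was -0.15 for Postn and -0.14 for Fbln1, 0.66 for Thbs2, 0.93 for Acta2, 0.25 for Dpt and 0.18 for Sparc, and the recurrent minus parental difference was 0.12 for Acta2, 0.84 for Thbs2, 1.06 for Dpt, 0.17 for Fbln1 and 0.13 for Thbs1. The array weight was 2.87 for AZD1208 1, 0.579 for AZD1208 2 and 0.342 for AZD1208 3, so that setting leaned on AZD1208 1. Vehicle lines had weights of 0.627, 1.67 and 1.36. The AZD1208 minus vehicle difference of Dpt was -0.0389 with quantile normalization and -0.0224 with arrays centred on their median, and that of Sparc -0.000426 with centring. With each array left out in turn the difference ran from -0.86 to 1.42 for Postn, -1.33 to 1.73 for Dpt, -0.0713 to 0.18 for Sparc and -0.49 to 1.95 for Thbs2, 0.03 to 0.90 for Fbln1, -1.06 to -0.35 for Fbln2, 0.09 to 0.58 for Thbs1 and 0.29 to 2.37 for Acta2. The cause was not tested. Fbln2, Thbs1 and Acta2 kept the direction of their AZD1208 minus vehicle difference under every setting run. None of the 8 members reached the adjusted threshold in any (smallest adjusted p = 0.8001, Fbln2, limma). Lum differed from the parental line by -0.0575 without parental array 1, against -0.14. A single parental sample and 3 lines a group set the precision.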
